A study of Mus musculus with 2 samples.

Results

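Chemokines and their receptors were described across the cell types of injured mouse thigh muscle and between 2 genotypes. The members were 34 genes taken by symbol from the gene list of the deposited matrices, 34 of 32574 genes: 26 ligands and 8 receptors, among them the atypical receptor Ackr1. All 34 had at least 100 UMIs (unique molecular identifiers, 1 per captured RNA molecule) over both libraries. The tissue was the adductor, taken 7 days after the femoral artery had been ligated (FAL), a model of limb ischemia. The Apoa1bp-/- group (AIBP-KO in the labels) carried a knockout of the gene for apolipoprotein A-I binding protein, which is listed under its enzyme name Naxe in these files. The WT group were control littermates that had the same operation. The labels state 4 operated mice for each genotype and digestion with collagenase D at 1 mg/mL, name the material as all cells of the muscle, and do not state how cells of the mice were combined or a strain, age or sex. Each genotype is 1 single-cell RNA-seq library, so no difference below has a replicate check, no p-value is given, and a genotype and its library cannot be told apart.

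Chemokines are small secreted proteins that bind receptors on leukocytes and guide their movement into and within tissue. In injured muscle, ligands of Ccr2 draw Ly6c monocytes out of the blood, ligands of Cxcr2 draw neutrophils, and ligands of Cxcr3 draw T cells and NK cells. Resident macrophages, stromal cells and endothelium all release such ligands after injury. The atypical receptor Ackr1 binds many chemokines without G protein signalling and is known from venular endothelium and red cells.

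The Apoa1bp-/- library kept 8675 of 9392 barcodes with a median of 6579 UMIs per cell, and the WT library kept 12467 of 14035 with a median of 4159. The libraries shared 43 cell barcodes. The targeted gene Naxe had 0 UMIs in the Apoa1bp-/- library, which allows up to 0.0412 CPM (UMIs of the gene per 1000000 UMIs of the cells) at 3 counts, and 3365 UMIs in the WT library. The series title speaks of endothelial cells, whereas endothelial-like cells made up 4.44% of the kept Apoa1bp-/- cells and 3.20% of the kept WT cells. Cells were sorted into 23 lineages by marker lists that hold no member gene. Macrophage-like cells were 37.6% and 40.9%, and fibroblast-like cells 17.1% and 30.1%, of Apoa1bp-/- and WT cells. Below, a level is the summed UMIs of a gene in a class in CPM of that class, and a ratio is the Apoa1bp-/- level over the WT level. Intervals are 95% and cover counting error only.

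Of the 34 members, 21 had their highest level in the same lineage in both libraries, over the 17 lineages with at least 20 cells in each. Macrophages led for Ccl7, Ccl8 and Pf4, neutrophils for Ccl3, Cxcl2, Ccr1 and Cxcr2, and monocytes for Ccl9 and Ccr2. Fibroblasts led for Ccl11, Cxcl1, Cxcl5, Cxcl13, Cxcl14 and Ackr1. The Fscn1 dendritic cells, a migratory state of dendritic cells, led for Ccl17, Ccl22, Cxcl16 and Ccr7, and T cells led for Cxcr3 and Cxcr6.

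**Figure D1:**
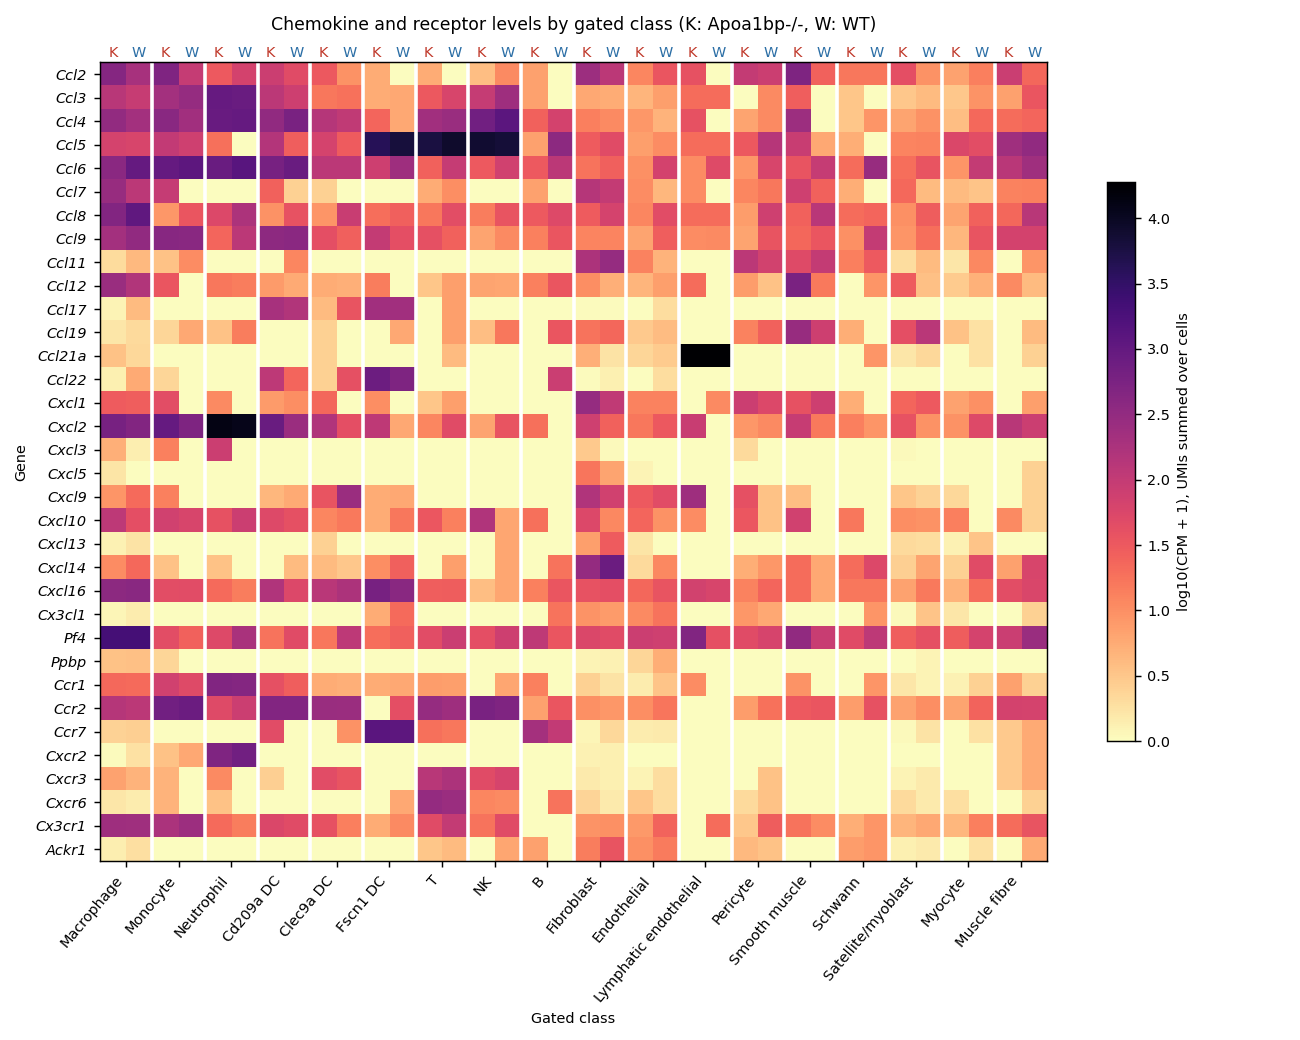
Level of each of the 34 members (down the page) in the gated lineages (across), as the logarithm of CPM plus 1. Within each lineage the Apoa1bp-/- column (K) is left of the WT column (W). Both libraries show the same blocks: Cxcr2 in neutrophils, Ccr7 and Ccl22 in Fscn1 dendritic cells, Cxcr6 in T cells, and Cxcl14 and Ccl11 in fibroblasts.

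**Figure D2:**
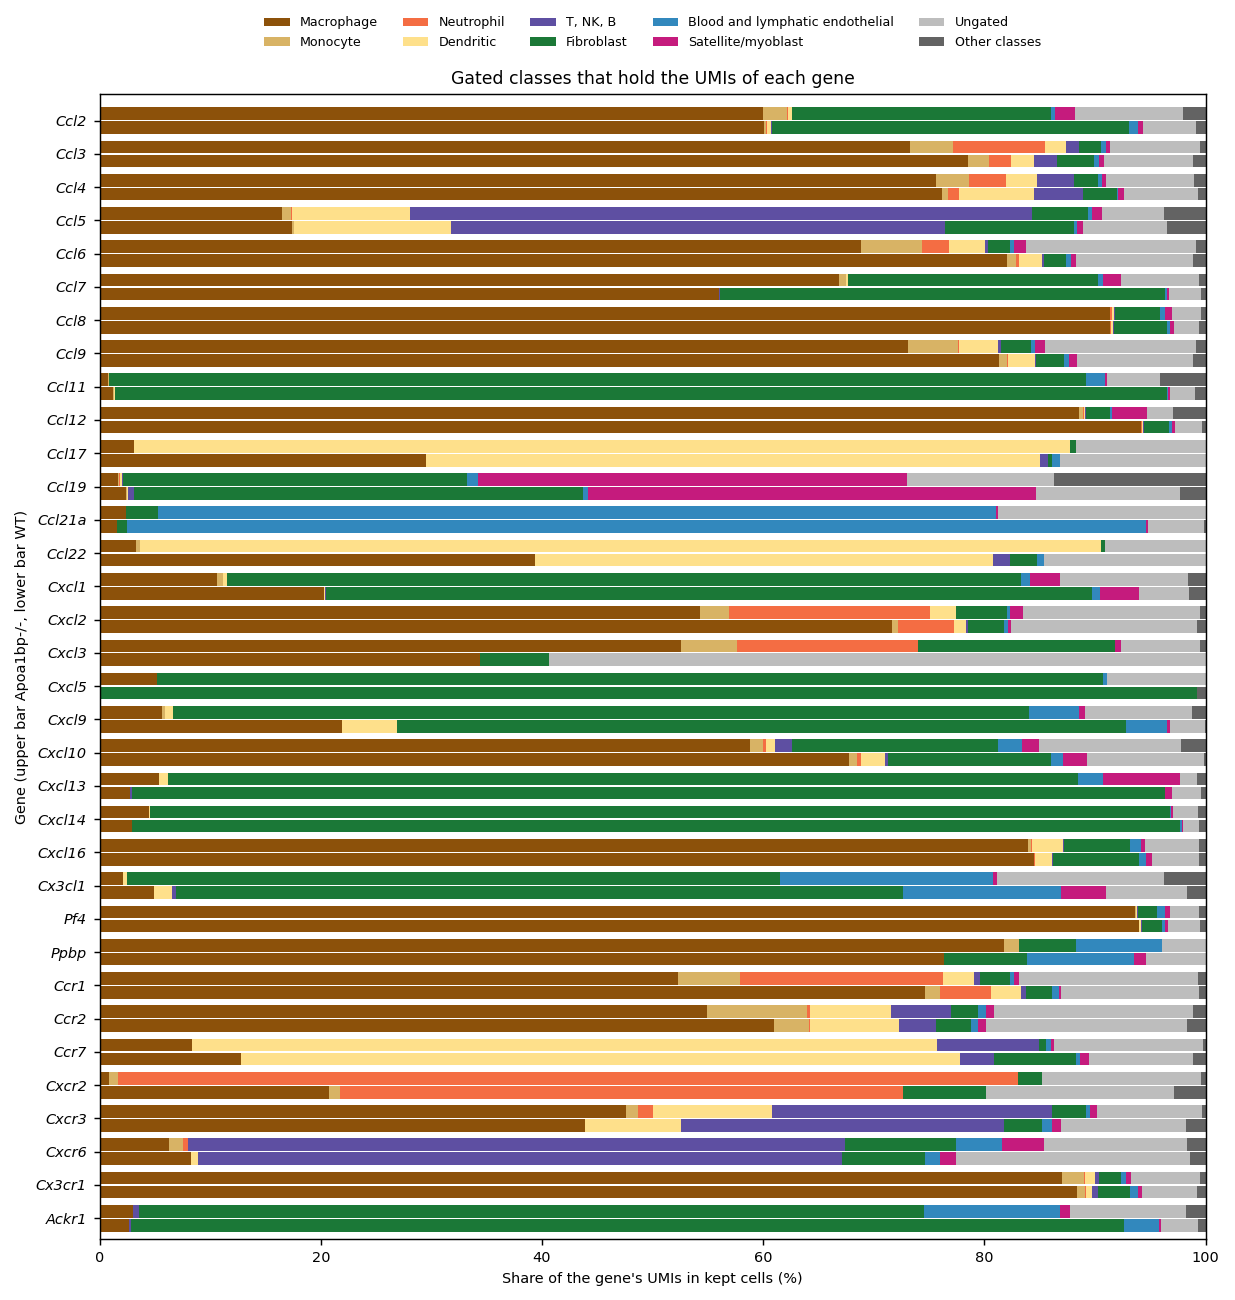
Share of each member's UMIs that came from each lineage or group of lineages, as stacked bars in percent of the gene's UMIs in kept cells. For each gene the Apoa1bp-/- bar is above the WT bar. Macrophages held 91.4% of Ccl8 UMIs in Apoa1bp-/- and 91.4% in WT, and neutrophils held 81.4% and 50.9% of Cxcr2 UMIs.

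Between the genotypes the family did not move one way. Over all kept cells, 25 members had at least 20 UMIs and a mean level of 5 CPM, and 5 of these were at least 1.5-fold higher in Apoa1bp-/- (Ccl2, Ccl7, Ccl12, Cxcl1 and Cxcl10), where 5.8% of all 10600 genes that met the same minimum were. Another 8 were at least 1.5-fold lower in Apoa1bp-/- (Ccl6, Ccl8, Ccl9, Ccl11, Ccl19, Cxcl13, Cxcl14 and Ackr1), against 8.19% of all genes. The other 12 lay within 1.5-fold, and 9 did not meet the minimum over all cells (Ccl17, Ccl22, Cxcl3, Cxcl5, Cx3cl1, Ppbp, Cxcr2, Cxcr3 and Cxcr6) and are described in the lineages that held them. The median log2 ratio was 0.12 over the members and -0.07 over all genes. With the median ratio of all genes as the scale the Ccl19 ratio was 0.692, and with cells thinned to 1000 UMIs the Cxcl1 ratio was 1.09, both within 1.5-fold. These sums also carry the different cell shares of the libraries, so the comparison was made within lineages next.

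In macrophages, 19 members met the minimum. Ccl2, Ccl4, Ccl7, Ccl12 and Cxcl10 were past 1.5-fold higher in Apoa1bp-/-, against 2.4% of all genes in that class. Ccl6, Ccl8, Ccl9, Cxcl9 and Cxcl14 were past 1.5-fold lower, against 8.47% of all genes. The other 9 lay within 1.5-fold. Cxcl14, a fibroblast gene, stood at 9.80 CPM in Apoa1bp-/- and 21.2 CPM in WT macrophages. The 9 fibroblast markers, none at 0, summed to 187 and 557 CPM there, in class II cells to 211 and 587 CPM and in lipid-associated cells to 137 and 444 CPM, in Apoa1bp-/- and WT, and their part in the lower Cxcl14 was not tested. The median log2 ratio of all genes in this class was -0.14, and that of the members 0.11. In fibroblasts, 23 members met the minimum, and 7 were past 1.5-fold higher in Apoa1bp-/- (Ccl2, Ccl12, Cxcl1, Cxcl2, Cxcl5, Cxcl9 and Cxcl10), against 6.55% of all genes. Another 7 were past 1.5-fold lower (Ccl5, Ccl6, Ccl8, Ccl11, Cxcl13, Cxcl14 and Ackr1), against 11.7% of all genes. The member median was 0.21 and that of all genes -0.10.

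**Figure D3:**
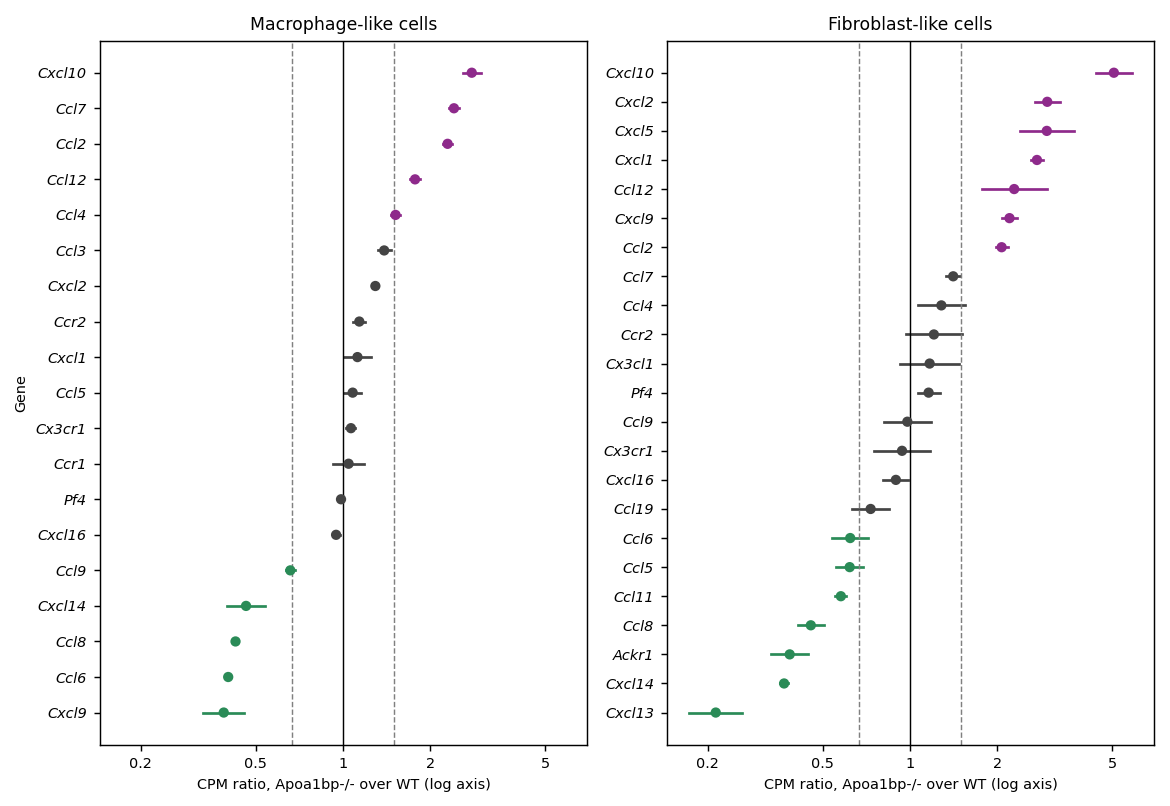
Ratio of the Apoa1bp-/- level to the WT level, on a log axis with its 95% counting interval, for the members that met the minimum in macrophages and in fibroblasts. Dashed lines mark 1.5-fold. In macrophages Ccl2, Ccl7 and Ccl12 lie to the right of the upper line and Ccl6 and Ccl8 to the left of the lower one.

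Ccl2, Ccl7 and Ccl12 are CC ligands that act on Ccr2, the receptor that monocytes use to leave the blood. In macrophages, Ccl2 stood at 433 CPM (95% interval 425 to 441) in Apoa1bp-/- and 188 CPM (95% interval 183 to 194) in WT, a ratio of 2.30 (95% interval 2.22 to 2.38). Ccl7 stood at 284 CPM (95% interval 277 to 290.3) in Apoa1bp-/- and 117 CPM (95% interval 113 to 121) in WT, a ratio of 2.42. Ccl12, a mouse gene related to Ccl2, stood at 270.3 CPM (95% interval 264 to 277) in Apoa1bp-/- and 152 CPM (95% interval 148 to 157) in WT, a ratio of 1.77. All 3 were therefore higher in Apoa1bp-/- macrophages than counting error allows for. With cells thinned to 1000 UMIs, a Ccl2 UMI was found in 10.2% (9.21 to 11.4) of Apoa1bp-/- and 8.01% (7.26 to 8.82) of WT macrophages (unthinned, 23.3% and 19.2%). T cells, which should lack Ccl2, had 0.735% in Apoa1bp-/- and 0 of 134 cells in WT, which allows a share of up to 2.24%. Median depths were 6601 and 4240.5 UMIs in Apoa1bp-/- and WT macrophages, and 2582 and 1785 in Apoa1bp-/- and WT T cells. Share and level differed in size: the share of macrophages with Ccl2 was nearer between the libraries than the level.

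The macrophages held different mixtures of states in the libraries. Cells gated as resident (Cd163, Fcna and Lyve1 among 7 markers) were 2.30% of Apoa1bp-/- and 12.6% of WT macrophages (75 and 641 cells). Lipid-associated cells (Gpnmb, Spp1, Trem2) were 28.4% and 22.7%, class II cells (H2-Aa, H2-Ab1, Cd74) 48.8% and 47.5%, and interferon-state cells (Rsad2, Ifit1, Ifit2) 4.78% and 1.29%. With the 4 states and the ungated rest weighted alike in both libraries, the macrophage ratio was 1.99 for Ccl2, 2.06 for Ccl7, 1.47 for Ccl12 and 1.41 for Ccl4, so that Ccl12 and Ccl4 came to lie within 1.5-fold.

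Within the states, the Ccr2 ligands were higher in the resident and lipid-associated cells of Apoa1bp-/- mice. In lipid-associated macrophages, which clear debris and lipid, Ccl2 stood at 637 CPM in Apoa1bp-/- and 217 CPM in WT (ratio 2.93, interval 2.79 to 3.09). Ccl7 stood there at 407 and 116 CPM (ratio 3.51), and Ccl12 at 259.9 and 54.2 CPM (ratio 4.79), in Apoa1bp-/- and WT. In thinned cells the Ccl12 ratio of this state was 2.67. Of 18 members that met the minimum in this state, 5 were past 1.5-fold higher (with Cxcl10 and Ccr2), against 2.69% of all genes, and 2 lower (Ccl5 and Cxcl14), against 6.51%. In resident macrophages Ccl2 stood at 1169 CPM in Apoa1bp-/- and 188 CPM in WT (ratio 6.22, interval 5.53 to 6.996), with 34.8% of the Apoa1bp-/- UMIs in 1 cell; without the highest cell of each library the ratio was 4.73. Of 17 members that met the minimum among resident cells, 9 were past 1.5-fold higher (Ccl2, Ccl3, Ccl4, Ccl7, Ccl12, Cxcl2, Cxcl3, Ccr1 and Ccr2), against 11.5% of all genes. Ccl5 and Ccl8 were past 1.5-fold lower, against 19.9%. The Apoa1bp-/- values rest on 75 resident cells, and for some genes on fewer. Cxcl3 had 21 UMIs in 2 Apoa1bp-/- cells, 1 of which held 95.2%, and 1 UMI in WT, so its call describes 1 cell, and without the highest cell of each library no ratio could be given. A single Apoa1bp-/- cell held 58.7% of the Cxcl2 UMIs, and without the highest cells the Cxcl2 ratio was 3.81 in place of 7.48. In thinned resident cells the Ccr2 ratio was 0.715 in place of 2.14 and the Ccl8 ratio 0.750 in place of 0.576.

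Class II macrophages, which present antigen, had 133 CPM of Ccl2 in Apoa1bp-/- and 123 CPM in WT, a ratio of 1.08 (95% interval 1.00 to 1.17). That is within 1.5-fold. Ccl12 was past it in this state, with 163 CPM in Apoa1bp-/- and 80.7 CPM in WT. Of 21 members there, 3 were past 1.5-fold higher (Ccl4, Ccl12 and Cxcr3), against 3.28% of all genes, and 6 lower (Ccl6, Ccl9, Ccl22, Cxcl1, Cxcl9 and Cxcl14), against 10.9%. Interferon-state macrophages went the other way for Ccl2, with 1031 CPM in Apoa1bp-/- and 1942 CPM in WT. A single WT cell held 80.7% of those WT UMIs, and without the highest cell of each library the ratio was 2.498 instead of 0.531. Of 20 members in that state, 7 were past 1.5-fold higher (Ccl21a, Cxcl1, Cxcl2, Cxcl10, Ccr1, Ccr2 and Ccr7), against 19.6% of all genes, and 7 lower (Ccl2, Ccl4, Ccl6, Ccl8, Ccl12, Cxcl9 and Pf4), against 13.4%. A single WT cell held 63.7% of the WT UMIs of Ccl4, 60.6% of those of Ccl12 and 49.7% of those of Pf4 in this state.

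**Figure D4:**
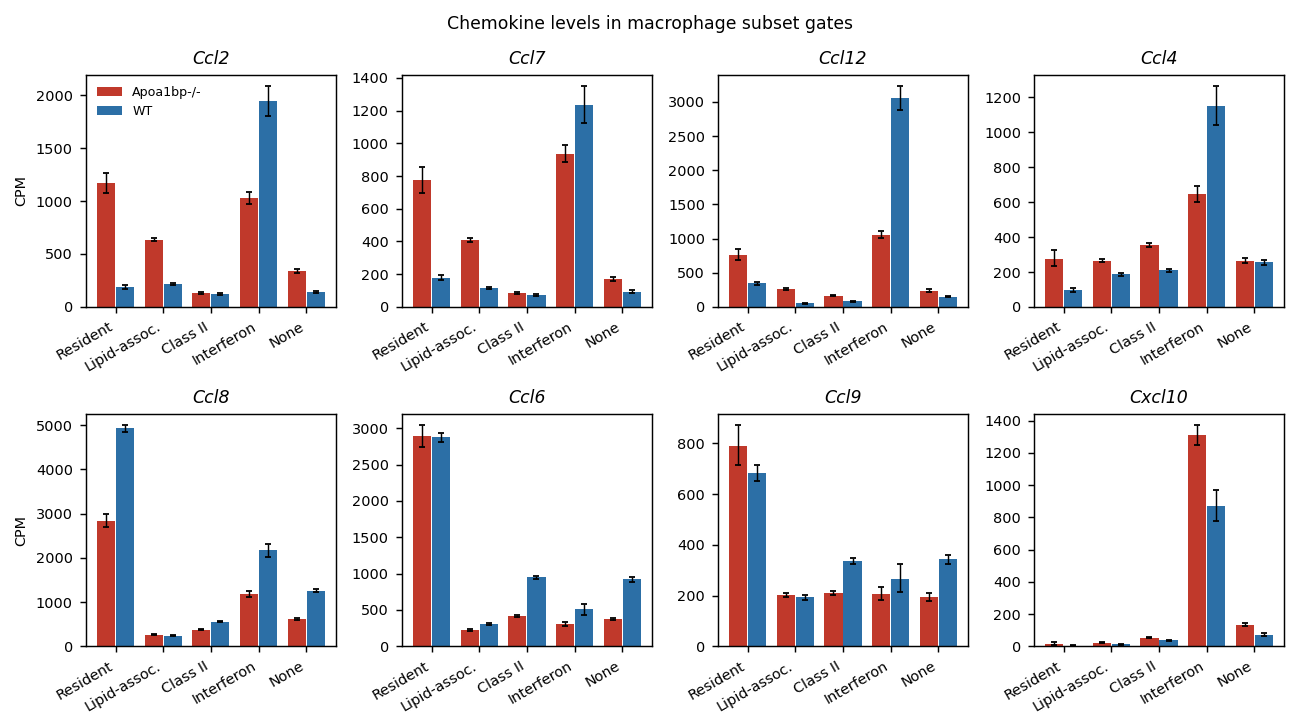
Levels of members in the 4 macrophage states and in macrophages that passed no state gate, as bars in CPM with 95% counting intervals, with Apoa1bp-/- left of WT in each pair. The Ccl2 and Ccl7 pairs are far apart in resident and lipid-associated cells, and the Ccl2 pair is close in class II cells.

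The same ligands were measured outside macrophages. Fibroblasts had 244 CPM (95% interval 237 to 252) of Ccl2 in Apoa1bp-/- and 118 CPM (95% interval 114 to 122) in WT, a ratio of 2.07; weighting the fibroblast states alike gave 1.47. Ccl7 in fibroblasts stood at 138 CPM in Apoa1bp-/- and 98.3 CPM in WT (ratio 1.41, interval 1.33 to 1.49), within 1.5-fold. Ccl12 stood at 9.38 CPM in Apoa1bp-/- and 4.10 CPM in WT fibroblasts (ratio 2.29, interval 1.77 to 2.98). The 10 macrophage markers, none at 0, summed to 541 CPM in Apoa1bp-/- and 593 CPM in WT fibroblasts, against 17995 and 17468 CPM in macrophages. Their part in the fibroblast Ccl12 was not tested. Monocytes had 488 CPM of Ccl2 in Apoa1bp-/- (154 cells) and 93.3 CPM in WT (50 cells). In smooth muscle cells, 1 Apoa1bp-/- cell held 82.2% of the Ccl2 and 97.1% of the Ccl12 UMIs. The class levels of 523 CPM and 561 CPM in Apoa1bp-/-, against 24.5 and 14.7 CPM in WT, therefore describe that cell.

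Ccl8, Ccl6 and Ccl9 are CC ligands of macrophages and other myeloid cells, and all 3 were lower in Apoa1bp-/- macrophages. Ccl8 stood at 452 CPM (95% interval 444 to 460.4) in Apoa1bp-/- and 1063 CPM (95% interval 1051 to 1075) in WT, a ratio of 0.425 (95% interval 0.416 to 0.435). Ccl6 stood at 378 CPM (95% interval 370.4 to 386) in Apoa1bp-/- and 942 CPM (95% interval 931 to 954) in WT, a ratio of 0.401 (95% interval 0.392 to 0.411). Ccl9, a ligand of Ccr1, stood at 216 CPM in Apoa1bp-/- and 328 CPM in WT, a ratio of 0.658, just past the limit; scaled by the median ratio of all genes it was 0.723. Macrophages with a Ccl8 UMI made up 15.5% (14.2 to 16.8) of thinned Apoa1bp-/- and 28.4% (27.2 to 29.7) of thinned WT cells (unthinned, 29.5% and 43.8%). For Ccl6 these shares were 20.5% (19.1 to 21.98) and 39.1% (37.7 to 40.4) (unthinned, 53.2% and 63.8%). T cells gave 2.94% and 7.46% for Ccl8 and 0.735% and 4.48% for Ccl6, in Apoa1bp-/- and WT, so both genes were above that background in macrophages of both libraries.

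The states again differed. Resident macrophages, which carried the highest Ccl8 levels of the 4 states, had 2838 CPM in Apoa1bp-/- and 4928 CPM in WT, a ratio of 0.576 (95% interval 0.545 to 0.608). Their Ccl6 stood at 2893 CPM in Apoa1bp-/- and 2876 CPM in WT, a ratio of 1.01 (95% interval 0.9502 to 1.06), and Ccl9 at 791 and 683 CPM. Class II cells had 421 CPM of Ccl6 in Apoa1bp-/- and 950.3 CPM in WT, and 210.2 and 337 CPM of Ccl9. Lipid-associated cells had 256 CPM of Ccl8 in Apoa1bp-/- and 239 CPM in WT. Interferon-state cells had 1185 CPM of Ccl8 in Apoa1bp-/- and 2168 CPM in WT, and 302 and 506 CPM of Ccl6. The lower Ccl6 was thus past 1.5-fold in class II and interferon-state cells and not in resident ones, and the lower Ccl8 in resident and interferon-state cells and not in the other states. The Ccl9 ratio of class II cells was 0.624, and 0.684 when scaled by the median ratio of all genes. With the states weighted alike, the macrophage ratio was 0.613 for Ccl8, 0.611 for Ccl6 and 0.774 for Ccl9. Ccl6 was also measured in neutrophils (855 CPM in Apoa1bp-/- and 1307 CPM in WT) and monocytes (939.8 and 1144 CPM). Among whole lineages Ccl9 was highest in monocytes, at 414 CPM in Apoa1bp-/- and 393 CPM in WT, and next in Cd209a dendritic cells at 351 and 385 CPM. Fibroblasts, which should lack Ccl6 and Ccl8, showed 16.3 CPM of Ccl6 in Apoa1bp-/- and 26.2 CPM in WT and 29.3 and 64.5 CPM of Ccl8. The 10 macrophage markers, none at 0, summed to 541 CPM in Apoa1bp-/- and 593 CPM in WT fibroblasts, and their part in these values was not tested.

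Ccl3, Ccl4 and Ccl5 are inflammatory ligands, and Ccl3 and Ccl5 bind Ccr1. Neutrophils had 927 CPM of Ccl3 in Apoa1bp-/- and 858 CPM in WT, followed by monocytes with 214 and 294 CPM. Macrophage Ccl3 stood at 127 CPM in Apoa1bp-/- and 91.8 CPM in WT (ratio 1.39, interval 1.32 to 1.46). Ccl4 had its highest levels in neutrophils (896 CPM in Apoa1bp-/- and 964 CPM in WT) and NK cells (693 and 1197 CPM). Its macrophage level was 318 CPM in Apoa1bp-/- and 209 CPM in WT, a ratio of 1.52 (95% interval 1.47 to 1.57) that sits at the limit. Macrophages summed to 25094510 and 26976217 UMIs of all genes in Apoa1bp-/- and WT, neutrophils to 392800 and 75741, and NK cells to 366466 and 195425. Macrophages therefore held more Ccl4 UMIs than either lineage. In class II macrophages Ccl4 stood at 355 CPM in Apoa1bp-/- and 209.7 CPM in WT (ratio 1.69, interval 1.60 to 1.79). Ccl3 and Ccl4 are similar paralogs, so reads that match both are uncertain.

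Ccl5, which T and NK cells store and release, was a lymphoid and dendritic gene here. NK cells had 7556 CPM in Apoa1bp-/- and 6821 CPM in WT, T cells 5912 and 8403 CPM, and Fscn1 dendritic cells 4181 and 6403 CPM. A Ccl5 UMI was found in 74.5% of thinned Apoa1bp-/- and 83.3% of thinned WT NK cells (unthinned, 85% and 89.3%). Satellite cells, the muscle stem cells that should lack it, gave 0.544% and 0.477%, at median depths of 7418 UMIs in Apoa1bp-/- and 3858 in WT against 3391 and 2116 in NK cells. In fibroblasts the Ccl5 level was 28.5 CPM in Apoa1bp-/- and 46.2 CPM in WT, with 50.4% of the Apoa1bp-/- UMIs in 1 cell.

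Ccl11, the eotaxin that attracts eosinophils through Ccr3, marked fibroblasts. It stood at 168 CPM (95% interval 162 to 174) in Apoa1bp-/- fibroblasts and 292 CPM (95% interval 285 to 299) in WT fibroblasts, a ratio of 0.576 (95% interval 0.552 to 0.602). A Ccl11 UMI was found in 18.6% of thinned Apoa1bp-/- and 25.5% of thinned WT fibroblasts (unthinned, 42.6% and 50.1%), at median depths of 8938 and 4768 UMIs. T cells had none in 136 Apoa1bp-/- and 134 WT cells, which allows up to 2.21% and 2.24%. Fibroblast states were also unequal between the libraries: progenitor cells (Pi16, Dpp4, Cd55) were 10.3% of Apoa1bp-/- and 24.7% of WT fibroblasts, interstitial cells (Smoc2, Hsd11b1, Col15a1) 27.9% and 33.1%, and activated cells (Tnc, Cthrc1, Postn) 47.2% and 28.0%. In interstitial cells Ccl11 stood at 684 CPM in Apoa1bp-/- and 905 CPM in WT (ratio 0.756, interval 0.716 to 0.798), and in progenitor cells at 261 and 239.7 CPM. Weighted alike, the fibroblast ratio was 0.825, within 1.5-fold, and in thinned cells it was 0.687. Ccl11 was called past 1.5-fold in none of the gated fibroblast states. The part of the state shares in the ratio of the whole class was not tested.

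Ccl17 and Ccl22 are Ccr4 ligands made by dendritic cells, and Ccl19 and Ccl21a are the Ccr7 ligands that lead dendritic cells to lymph nodes. Fscn1 dendritic cells (29 in Apoa1bp-/- and 43 in WT) had 784 CPM (95% interval 671 to 911) of Ccl22 in Apoa1bp-/- and 519 CPM (95% interval 423 to 630.3) in WT, and 225 and 219 CPM of Ccl17. Cd209a dendritic cells, a monocyte-related or conventional type, had 192 CPM of Ccl17 in Apoa1bp-/- and 149 CPM in WT, but 1 cell held 62.6% and 65.6% of those UMIs. Ccl21a came from the lymphatic endothelial cells, at 18854 CPM in 11 Apoa1bp-/- cells and 18598 CPM in 17 WT cells. Those few cells held 75.6% of all Ccl21a UMIs in Apoa1bp-/- and 91.9% in WT. Ccl19 and Ccl21a lie next to each other on mouse chromosome 4 in a region with near-identical copies, so how reads were assigned to them is uncertain.

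Ccl19 was carried by satellite cells in both libraries, at 42.2 CPM (95% interval 37.9 to 46.9) in Apoa1bp-/- and 124 CPM (95% interval 113 to 135) in WT, a ratio of 0.341 (95% interval 0.297 to 0.391). A Ccl19 UMI was found in 4.46% of thinned Apoa1bp-/- and 12.3% of thinned WT satellite cells (unthinned, 22.9% and 25.1%). No thinned T cell had one, among the T cell numbers given for Ccl11. No single cell held over 2.56% of the UMIs in Apoa1bp-/- or 2.14% in WT. The Ccl19 level in satellite cells was therefore spread over many cells of each library and lower in Apoa1bp-/-. The 5 markers of cycling cells summed to 1283 CPM in Apoa1bp-/- and 378 CPM in WT satellite cells. The 7 markers of the lineage itself summed to 1724 and 2257 CPM. No states were gated in this lineage, and the part of these differences in the Ccl19 ratio was not tested. In smooth muscle cells Ccl19 was 279 CPM in Apoa1bp-/-, where 1 cell held 94.1%, and 78.3 CPM in WT.

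The CXC ligands fall into those of Cxcr2 (Cxcl1, Cxcl2, Cxcl3, Cxcl5 and Ppbp), which attract neutrophils, and those of Cxcr3 (Cxcl9 and Cxcl10), which interferon induces and which attract T and NK cells. Promoter windows of 300 bases, from 250 before to 50 after the start of the gene, came from RefSeq on GRCm38.p6 and matched 26 of the 34 members. Ccl2, Ccl4, Ccl5, Ccl7, Ccl11, Ccr7, Cxcl5 and Cxcl16 were not matched. They were searched on both strands, overlapping matches counted, for an NF-kB-like run (GGG, any 5 bases, CC) and an interferon-response-like run (GAAA, any 2 bases, GAAA). NF-kB-like runs were in 13 of 26 member windows and in 50.8% of all 32851 windows, so they were as common elsewhere. Interferon-response-like runs were in 3 of 26 (Ccl19, Cxcl10 and Cxcl14) and in 3.44% of all windows. A match is only a run of letters. The windows of 4 ligands that were higher in Apoa1bp-/- fibroblasts follow, 5′ to 3′ on the strand of the gene, with the matches in capitals; NF-kB-like matches number 3 for Cxcl10, 2 for Cxcl9, 4 for Cxcl1 and 3 for Cxcl2, and the early capital run of Cxcl10 is its interferon-response-like match.
Cxcl10, chr5:92348840-92349139, minus strand: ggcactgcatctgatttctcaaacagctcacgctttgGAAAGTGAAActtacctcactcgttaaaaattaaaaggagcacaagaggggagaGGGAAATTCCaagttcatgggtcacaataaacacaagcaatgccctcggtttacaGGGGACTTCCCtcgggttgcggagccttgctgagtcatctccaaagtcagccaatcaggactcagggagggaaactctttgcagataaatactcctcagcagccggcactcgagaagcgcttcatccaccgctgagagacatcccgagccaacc
Cxcl9, chr5:92328030-92328329, minus strand: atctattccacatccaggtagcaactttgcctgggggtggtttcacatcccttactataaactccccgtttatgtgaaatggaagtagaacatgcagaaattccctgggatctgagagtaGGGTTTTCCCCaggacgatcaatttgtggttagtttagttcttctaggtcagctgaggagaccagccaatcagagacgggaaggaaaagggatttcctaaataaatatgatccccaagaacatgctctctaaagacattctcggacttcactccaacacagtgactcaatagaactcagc
Cxcl1, chr5:90890995-90891294, plus strand: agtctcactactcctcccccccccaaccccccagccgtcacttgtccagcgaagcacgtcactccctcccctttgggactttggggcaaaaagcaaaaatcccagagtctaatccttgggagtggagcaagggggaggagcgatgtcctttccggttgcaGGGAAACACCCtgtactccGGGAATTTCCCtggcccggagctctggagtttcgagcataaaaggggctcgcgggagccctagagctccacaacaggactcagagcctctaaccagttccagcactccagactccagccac
Cxcl2, chr5:90903649-90903948, plus strand: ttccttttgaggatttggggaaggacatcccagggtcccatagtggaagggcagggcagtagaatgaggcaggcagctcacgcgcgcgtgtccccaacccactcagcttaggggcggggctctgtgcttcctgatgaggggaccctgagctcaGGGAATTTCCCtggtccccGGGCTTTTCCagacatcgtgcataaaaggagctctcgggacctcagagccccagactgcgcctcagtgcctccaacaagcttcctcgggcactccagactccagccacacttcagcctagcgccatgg

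Of these, Cxcl1 was a fibroblast gene. It stood at 288 CPM (95% interval 280.4 to 296) in Apoa1bp-/- and 105 CPM (95% interval 101 to 109) in WT, a ratio of 2.74 (95% interval 2.61 to 2.88). Activated fibroblasts, which lay down scar matrix, had 382 CPM in Apoa1bp-/- and 146 CPM in WT (ratio 2.62, interval 2.47 to 2.77). Interstitial cells had 117 CPM in Apoa1bp-/- and 94.4 CPM in WT, and progenitor cells 15.4 and 24.0 CPM. The higher Cxcl1 thus belonged to the activated state, and progenitor cells were past 1.5-fold the other way on 17 UMIs in Apoa1bp-/- and 97 in WT. With the states weighted alike the fibroblast ratio was 1.87, and in thinned cells 1.73. A Cxcl1 UMI was found in 8.29% (6.91 to 9.83) of thinned Apoa1bp-/- and 5.69% (4.96 to 6.49) of thinned WT fibroblasts (unthinned, 26.5% and 17.4%), and in 0 of 136 Apoa1bp-/- and 1.49% of WT T cells. Cxcl5, a related ligand, stood at 16.0 CPM in Apoa1bp-/- fibroblasts and 5.39 CPM in WT fibroblasts (ratio 2.97, interval 2.39 to 3.69). Fibroblasts held 85.5% of its UMIs in Apoa1bp-/- and 99.2% in WT, and in thinned fibroblasts the ratio was 1.56.

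Cxcl2 had its highest level in neutrophils, at 12859 CPM in Apoa1bp-/- and 11711 CPM in WT (ratio 1.10, interval 1.02 to 1.18), with the lineage holding 173 and 56 cells. Macrophages had 601 CPM in Apoa1bp-/- and 465 CPM in WT (ratio 1.29, interval 1.26 to 1.32), and monocytes 942 and 515 CPM. Macrophages, 3261 cells in Apoa1bp-/- and 5098 in WT, held more Cxcl2 UMIs than neutrophils in both libraries. In fibroblasts Cxcl2 stood at 74.1 CPM (95% interval 70.1 to 78.3) in Apoa1bp-/- and 24.9 CPM (95% interval 22.9 to 27.0) in WT, a ratio of 2.98. Cxcl2 was thus within 1.5-fold in neutrophils and macrophages and past it, higher in Apoa1bp-/-, in monocytes and fibroblasts. Cxcl3 had 196 UMIs in Apoa1bp-/- and 32 in WT over all kept cells. In neutrophils it had 32 UMIs in Apoa1bp-/- and 0 in WT, where 3 counts would be 39.6 CPM against the Apoa1bp-/- level of 81.5 CPM. Cxcl1, Cxcl2 and Cxcl3 are similar paralogs, so reads shared among them are uncertain. Ppbp, a platelet ligand, had 77 UMIs in Apoa1bp-/- and 93 in WT. Macrophages held 81.8% and 76.3% of them, and no cell passed the platelet gate in either library.

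The Cxcr3 ligands were higher in Apoa1bp-/- fibroblasts. Cxcl10 stood at 52.6 CPM (95% interval 49.3 to 56.1) in Apoa1bp-/- fibroblasts and 10.4 CPM (95% interval 9.13 to 11.8) in WT fibroblasts, a ratio of 5.06 (95% interval 4.39 to 5.86). Cxcl9 stood at 157 CPM (95% interval 151 to 163) in Apoa1bp-/- fibroblasts and 71.0 CPM (95% interval 67.6 to 74.5) in WT fibroblasts, a ratio of 2.21 (95% interval 2.07 to 2.35). Both differences stood inside the activated and interstitial states as well. Cxcl10 was at 62.5 and 13.6 CPM in activated cells of Apoa1bp-/- and WT, and at 48.3 and 11.7 CPM in interstitial cells. Cxcl9 was at 140.3 and 81.4 CPM in activated cells of Apoa1bp-/- and WT, and at 194 and 83.7 CPM in interstitial cells. Progenitor cells were low in both, with 1.81 CPM of Cxcl10 in Apoa1bp-/- and 3.72 CPM in WT, and 8.15 and 9.67 CPM of Cxcl9. A Cxcl9 UMI was found in 10.9% (9.30 to 12.6) of thinned Apoa1bp-/- and 4.17% (3.55 to 4.88) of thinned WT fibroblasts (unthinned, 37.2% and 12.8%), and in none of the thinned T cells counted for Ccl11. The 8 interferon-state marker genes, none at 0, summed to 463 CPM in Apoa1bp-/- fibroblasts and 179 CPM in WT fibroblasts; their part in the Cxcl9 and Cxcl10 values was not tested.

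In macrophages the pair parted. Cxcl10 stood at 115 CPM (95% interval 110.5 to 119) in Apoa1bp-/- and 41.1 CPM (95% interval 38.8 to 43.6) in WT, a ratio of 2.79 (95% interval 2.60 to 2.99), while Cxcl9 stood at 7.85 CPM (95% interval 6.79 to 9.03) in Apoa1bp-/- and 20.3 CPM (95% interval 18.6 to 22.05) in WT, a ratio of 0.387 (95% interval 0.327 to 0.456). The interferon-state markers summed to 757 CPM in Apoa1bp-/- macrophages and 333 CPM in WT macrophages, again with none at 0. Within the interferon state Cxcl10 was at 1308 CPM in Apoa1bp-/- and 867 CPM in WT, a ratio of 1.51 (95% interval 1.34 to 1.71) that was 1.26 in thinned cells, and with the states weighted alike the macrophage ratio was 1.60. Clec9a dendritic cells, the type that primes CD8 T cells, had 35.5 CPM of Cxcl9 in Apoa1bp-/- and 253 CPM in WT. Their largest single cells held 39.1% of the Apoa1bp-/- and 21.7% of the WT UMIs. Endothelial cells had 22.4 CPM of Cxcl10 in Apoa1bp-/- and 8.61 CPM in WT, with the interferon-state markers at 1347 and 552 CPM. In NK cells, where Cxcl10 was 156 CPM in Apoa1bp-/- and 5.12 CPM in WT, 1 cell held 47.4% of the Apoa1bp-/- UMIs. Cxcl10 shares exon sequence with Art3 on the opposite strand in the GENCODE annotation, and nothing read here says whether the counting used strand.

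**Figure D5:**
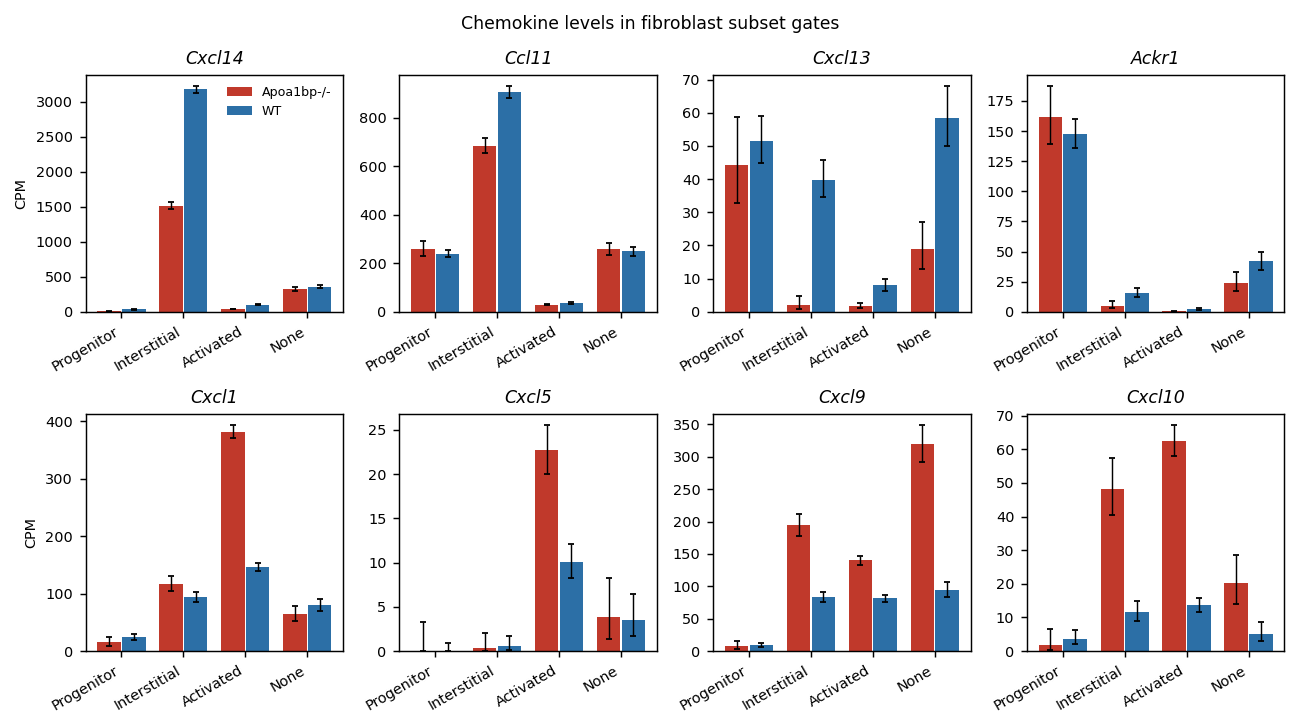
Levels of members in the 3 fibroblast states and in fibroblasts that passed no state gate, as bars in CPM with 95% counting intervals, with Apoa1bp-/- left of WT in each pair. Cxcl1 and Cxcl10 are higher in Apoa1bp-/- and Cxcl14 lower in the activated cells, and Ackr1 is alike in the progenitor cells.

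Cxcl14, a ligand of epithelium and stroma whose receptor is debated, and Cxcl13, the B cell attractant that binds Cxcr5, were lower in Apoa1bp-/- fibroblasts. Cxcl14 stood at 295 CPM (95% interval 287 to 304) in Apoa1bp-/- and 805 CPM (95% interval 793 to 816) in WT, a ratio of 0.367 (95% interval 0.356 to 0.378). Interstitial fibroblasts carried most of it, with 1517 CPM in Apoa1bp-/- and 3178 CPM in WT (ratio 0.477, interval 0.461 to 0.494), and with the states weighted alike the ratio was 0.493. The Cxcl14 difference was therefore also present inside the state that carries the gene. Thinned fibroblasts with a Cxcl14 UMI were 16.2% (14.3 to 18.2) in Apoa1bp-/- and 28.1% (26.6 to 29.6) in WT (unthinned, 31.7% and 39.7%), and none of the thinned T cells counted for Ccl11 had one. Cxcl13 stood at 6.16 CPM in Apoa1bp-/- fibroblasts and 28.9 CPM in WT fibroblasts (ratio 0.213, interval 0.172 to 0.262). In interstitial cells it was 2.20 CPM in Apoa1bp-/- and 39.8 CPM in WT, whereas progenitor cells had 44.3 and 51.6 CPM.

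Cxcl16, a membrane-bound ligand of Cxcr6, and Pf4, which macrophages of many tissues make besides platelets, were close between the libraries in macrophages. Macrophage Pf4 stood at 2040.1 CPM (95% interval 2022 to 2058) in Apoa1bp-/- and 2073 CPM (95% interval 2055 to 2089.8) in WT, a ratio of 0.984 (95% interval 0.973 to 0.996). Macrophages held 93.6% of Pf4 UMIs in Apoa1bp-/- and 94.0% in WT. The 10 platelet markers summed to 3.63 CPM in Apoa1bp-/- and 3.45 CPM in WT macrophages, with 3 of the 10 at 0 in each. Cxcl16 stood at 368 CPM in Apoa1bp-/- and 389 CPM in WT macrophages (ratio 0.946, interval 0.920 to 0.973), whereas Fscn1 dendritic cells had 605 and 397 CPM (ratio 1.52). Outside macrophages, Cxcl16 was past 1.5-fold higher in Cd209a dendritic cells and lower in endothelial cells, satellite cells, pericytes and myocytes of Apoa1bp-/-. Pf4 was past it higher in monocytes and lower in neutrophils, T cells, NK cells, Schwann cells, myocytes, muscle fibres, and Cd209a and Clec9a dendritic cells. In each lineage named here as lower for either gene, the 10 macrophage markers also summed to less in Apoa1bp-/-. In Cd209a dendritic cells, where Cxcl16 was higher, they summed to 863 CPM in Apoa1bp-/- and 1085 CPM in WT. In monocytes they summed to 1928 CPM in Apoa1bp-/- and 1620 CPM in WT. Their part in these Pf4 and Cxcl16 values was not tested. Cx3cl1, the membrane-bound ligand of Cx3cr1, was low everywhere, at 10.1 CPM in Apoa1bp-/- and 16.7 CPM in WT endothelial cells and 8.12 and 6.95 CPM in fibroblasts. The Cxcl16 exons overlap those of Zmynd15 on the opposite strand.

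Among the receptors, Ccr2, Ccr1 and Cx3cr1 mark the monocyte and macrophage line. Ccr2 stood at 705 CPM in Apoa1bp-/- and 809.8 CPM in WT monocytes (ratio 0.870, interval 0.730 to 1.04). It was also found on NK cells (578 CPM in Apoa1bp-/- and 501 CPM in WT), Cd209a dendritic cells (462 and 454 CPM) and T cells (287 and 242 CPM). Macrophages had 137 CPM (95% interval 133 to 142) in Apoa1bp-/- and 121 CPM (95% interval 116 to 125) in WT, a ratio of 1.14. The receptor thus lay within 1.5-fold in macrophages as a whole. By state, its ratio was 2.14 in resident, 1.72 in lipid-associated and 1.91 in interferon-state cells, the last on 20 WT UMIs, and 1.13 in class II cells. Thinned monocytes with a Ccr2 UMI were 42.7% in Apoa1bp-/- and 57.1% in WT (unthinned, 70.8% and 78%), and satellite cells gave 0.326% and 0.954%. Median depth of monocytes was 4970.5 UMIs in Apoa1bp-/- and 2674 in WT. Cx3cr1, the fractalkine receptor, stood at 242 CPM in Apoa1bp-/- and 228 CPM in WT macrophages (ratio 1.07, interval 1.028 to 1.10) and at 176 and 245 CPM in monocytes. Ccr1 stood at 471 CPM in Apoa1bp-/- and 436 CPM in WT neutrophils (ratio 1.08, interval 0.743 to 1.62). Exons of Cx3cr1 overlap those of Gm33858 on the opposite strand.

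The other receptors each sat in a small lineage. Cxcr2, through which neutrophils sense Cxcl1, Cxcl2 and Cxcl5, stood at 489 CPM (95% interval 422 to 563) in Apoa1bp-/- and 713 CPM (95% interval 536 to 930.3) in WT neutrophils, a ratio of 0.686 (95% interval 0.505 to 0.945). Thinned neutrophils with a Cxcr2 UMI were 46.1% in Apoa1bp-/- and 56.4% in WT (unthinned, 63.0% and 55.4%), and no thinned satellite cell of 919 in Apoa1bp-/- and 839 in WT had one, which allows up to 0.326% and 0.358%. The thinned and unthinned shares order the genotypes differently, so no order is read from them. Ccr7 stood at 1247 CPM in Apoa1bp-/- and 1171 CPM in WT Fscn1 dendritic cells (ratio 1.07, interval 0.890 to 1.28), and at 201 and 101 CPM in B cells. Cxcr6, a receptor of tissue-resident lymphocytes, stood at 307 CPM in Apoa1bp-/- and 254 CPM in WT T cells (ratio 1.21, interval 0.911 to 1.61). Cxcr3 stood at 129 CPM in Apoa1bp-/- and 170.5 CPM in WT T cells (ratio 0.756, interval 0.514 to 1.11), and at 46.4 and 61.4 CPM in NK cells. The intervals of both ratios in T cells include 1, and 140 Apoa1bp-/- and 157 WT cells entered.

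Ackr1 was highest in fibroblasts among the larger lineages, at 13.6 CPM (95% interval 11.96 to 15.5) in Apoa1bp-/- and 35.6 CPM (95% interval 33.2 to 38.1) in WT, a ratio of 0.384 (95% interval 0.331 to 0.444). Progenitor fibroblasts carried it, with 162 CPM in Apoa1bp-/- and 148 CPM in WT, and weighting the states alike gave 0.914. Interstitial cells had 5.12 CPM in Apoa1bp-/- and 15.9 CPM in WT. Ackr1 was thus not lower inside the progenitor cells, and it was past 1.5-fold lower in the interstitial cells. Progenitor cells were a smaller share of the Apoa1bp-/- fibroblasts, and the part of that share in the class ratio was not tested. Venous endothelial cells, the place where the receptor is best known, had 256 CPM in 16 Apoa1bp-/- cells and 394 CPM in 10 WT cells. In these cells of Apoa1bp-/- and WT, pericyte markers summed to 1064 and 0 CPM. Fibroblast markers summed there to 1786 and 263 CPM, and smooth muscle markers to 1895 and 446 CPM. Their part in the venous Ackr1 levels was not tested. Endothelium as a whole had 9.02 and 13.9 CPM. Ackr1 exons overlap those of Cadm3 on the same strand, and its reads may be shared with it.

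In endothelial cells (385 in Apoa1bp-/- and 399 in WT), 19 members met the minimum. Of these, 4 were past 1.5-fold higher in Apoa1bp-/- (Ccl4, Ccl7, Ccl11 and Cxcl10), against 6.66% of all genes, and 12 were lower, against 15.5%. The median log2 ratio of all genes in this class was -0.14, and that of the members -0.68. The member levels there were low. Ccl2 stood at 11.002 CPM (95% interval 8.17 to 14.5) in Apoa1bp-/- and 33.97 CPM (95% interval 26.5 to 42.8) in WT, and Ccl6 at 9.02 CPM (95% interval 6.47 to 12.2) in Apoa1bp-/- and 65.5 CPM (95% interval 55.0 to 77.5) in WT. The 10 macrophage markers, none at 0, summed to 505 CPM in Apoa1bp-/- and 871 CPM in WT endothelial cells, against 17995 and 17468 CPM in macrophages; their part in the member values was not tested. With cells thinned to 1000 UMIs, 0 of the members that still met the minimum were higher and 3 lower. The thinned Cxcl10 ratio was 4.84, but the gene no longer met the minimum. The thinned endothelial Ccl2 ratio was 1.51 in place of 0.324, and those of Ccl7 and Ccl11 also changed direction. Thinning leaves few UMIs of these low genes, so no direction is read from the thinned ratios.

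In satellite cells, 15 members met the minimum. Ccl2, Ccl7, Ccl12 and Cxcl2 were past 1.5-fold higher in Apoa1bp-/-, against 8.84% of all genes, and 7 (Ccl4, Ccl6, Ccl8, Ccl9, Ccl19, Cxcl16 and Ccr2) were lower, against 12.8%. A single cell held 72.4% of the Apoa1bp-/- Ccl2 UMIs in satellite cells, 82.5% of those of Ccl7, 85.9% of those of Ccl12 and 62.8% of those of Cxcl2. Without the highest cell of each library, 2 members were past 1.5-fold higher. With doublets kept, the satellite cell ratio was 1.01 for Ccl4 and 1.04 for Ccr2. The macrophage markers summed to 248 CPM in Apoa1bp-/- and 413 CPM in WT satellite cells, none at 0. Their part in the lower Ccl4, Ccl6, Ccl8, Ccl9, Cxcl16 and Ccr2 was not tested. Ccl19, described above, was the member that satellite cells carried themselves.

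In monocytes, 16 members met the minimum, 7 were past 1.5-fold higher in Apoa1bp-/-, against 17.5% of all genes, and 0 lower, against 18.3%. The 7 were Ccl2, Ccl4, Ccl7, Ccl12, Cxcl1, Cxcl2 and Pf4, and WT held 50 monocytes. The 9 neutrophil markers summed to 1067 CPM in Apoa1bp-/- and 314 CPM in WT monocytes, with 0 and 1 at 0, and their part in the higher Cxcl2 and Ccl4 was not tested. In neutrophils, 11 members met the minimum, 1 (Cxcl3) was higher, against 23.7% of all genes, and 5 (Ccl6, Ccl8, Cxcl10, Pf4 and Ccr2) lower, against 22.5%. In T cells, 13 met it, 1 (Ccl9) was higher, against 15.6%, and 6 (Ccl3, Ccl6, Ccl8, Cxcl2, Pf4 and Cx3cr1) lower, against 13.9%. In myocytes, 14 met it, 1 (Cxcl10) was higher, against 8.17%, and 12 lower, against 19.7%. Myocytes, which should make none of the myeloid ligands, had the 10 macrophage markers at 304 CPM in Apoa1bp-/- and 702 CPM in WT, none at 0. The same markers, again none at 0, stood at 782 CPM in Apoa1bp-/- and 1399.5 CPM in WT neutrophils, and at 469 and 772 CPM in T cells. Their part in the lower members of these 3 lineages was not tested. Fibroblast markers, none at 0, summed to 634 CPM in Apoa1bp-/- and 1918 CPM in WT myocytes. Their part in the lower Cxcl1 and Cxcl14 of myocytes was not tested.

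Pericytes, the mural cells of capillaries, had 11 members at the minimum, with Ccl11, Cxcl1, Cxcl9 and Cxcl10 past 1.5-fold higher in Apoa1bp-/-, against 11.9% of all genes, and 5 lower, against 19.5%. Their Cxcl10 rested on 30 UMIs in Apoa1bp-/- and 1 in WT and their Cxcl9 on 37 and 1. The direction of both in pericytes was that of the fibroblasts. The 9 fibroblast markers, none at 0, summed to 5107 CPM in Apoa1bp-/- and 4276 CPM in WT pericytes, against 40260 and 46056 CPM in fibroblasts. Their part in the higher members of pericytes was not tested. By state, 2 of 19 members in progenitor fibroblasts were past 1.5-fold higher, against 7.84% of all genes, and 6 lower, against 13.1%. In interstitial cells 4 of 20 were higher, against 6.7%, and 7 lower, against 11.8%. In activated cells 7 of 22 were higher, against 6.11%, and 4 lower, against 8.12%. The 7 of the activated cells were Ccl2, Ccl12, Cxcl1, Cxcl2, Cxcl5, Cxcl9 and Cxcl10, which are the 7 of the fibroblasts as a whole. Macrophage markers, none at 0, summed to 545 CPM in Apoa1bp-/- and 568 CPM in WT activated cells. Their part in the Ccl12 of these cells was not tested. Among dendritic cells, Cd209a cells had 8 of 17 members higher, against 13.9%, and 3 lower, against 15.4%, and Clec9a cells had 5 of 14 higher, against 19.4%, and 4 lower, against 9.99%. In NK cells 1 of 8 (Cxcl10) was higher, against 15%, and 4 lower, against 17.1%. In muscle fibres, 13 members met the minimum, 2 (Ccl2 and Cxcl2) were higher, against 5.12%, and 6 lower, against 38.9%, in a class where the median log2 ratio of all genes was -0.39. The macrophage markers, none at 0, stood at 1139 CPM in Apoa1bp-/- and 2720.1 CPM in WT fibres, and their part was not tested. Fibroblast markers, none at 0, stood at 416 and 1092 CPM in these fibres, and their part in the lower Cxcl14 was not tested. Schwann cells had 2 members at the minimum, Ccl6 and Pf4, both lower, against 15.2% of all genes. The macrophage markers, none at 0, were also lower in Apoa1bp-/- pericytes (464 CPM, against 1218 CPM in WT), Clec9a dendritic cells (401 against 1141 CPM), NK cells (407 against 716 CPM) and Schwann cells (391 against 780.0 CPM); their part was not tested.

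Some neighbouring genes were alike in direction and others were not. On mouse chromosome 11, RefSeq places Ccl2, Ccl7, Ccl11, Ccl12 and Ccl8 next to each other in that order. In macrophages the ratio was 2.30 for Ccl2, 2.42 for Ccl7, 1.77 for Ccl12 and 0.425 for Ccl8. A group further along holds Ccl5, Ccl9, Ccl6, Ccl3 and Ccl4, where macrophage ratios were 0.658 for Ccl9, 0.401 for Ccl6, 1.39 for Ccl3 and 1.52 for Ccl4. On chromosome 5, Cxcl9 and Cxcl10 lie on either side of Art3, and their macrophage ratios were 0.387 and 2.79.

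The other genes of the family, a list of 29 of which 28 were in the files, gave 9 that met the minimum over all kept cells. Xcl1, a ligand of NK and T cells, was past 1.5-fold higher in Apoa1bp-/- (9.79 CPM in Apoa1bp-/- and 6.11 CPM in WT). Ccl24, an eotaxin of macrophages, was past 1.5-fold lower (4.97 and 30.7 CPM), as were Cxcr4, the Cxcl12 receptor (65.8 and 100.04 CPM), and Ackr3, which scavenges Cxcl12 (29.1 and 99.2 CPM). Cxcl12 itself stood at 104 CPM in Apoa1bp-/- and 105 CPM in WT. Within lineages, Ccl24 stood at 12.9 CPM in Apoa1bp-/- and 68.1 CPM in WT macrophages, and Ackr3 at 69.2 CPM in Apoa1bp-/- and 252 CPM in WT fibroblasts.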

How the data were processed

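Raw UMI counts per gene and barcode were deposited by the authors as 1 matrix for each genotype, and they came from 10x Genomics libraries with a 10 base UMI per the labels' protocols. The matrix header names Cell Ranger 5.0.0, whereas the submitters' processing notes name Cell Ranger 2.1.1, and the difference was not resolved. Genome build, annotation, strand setting and treatment of reads that match several genes: not given in the sources used here.

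Barcodes with under 200 genes (31 in Apoa1bp-/- and 49 in WT) or over 10% mitochondrial UMIs (197 and 149) were left out. Doublets were then called with an own implementation of the Scrublet method and removed, 489 in Apoa1bp-/- (5.34%) and 1370 in WT (9.90%), against 7.51% and 11.2% that the barcode numbers lead one to expect. A cell entered a lineage with at least 3 of its markers and a score at least 1.25 times that of the next lineage. Macrophage, fibroblast and endothelial states were gated in the same way. The gates' limits were set after cell numbers and marker levels had been seen. Kept cells held 72805366 UMIs in Apoa1bp-/- and 67484375 in WT.

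UMIs were summed per lineage and library and scaled to CPM of the class total. A ratio was called past 1.5-fold where the gene had at least 20 UMIs over both libraries and a mean of 5 CPM, counted over all genes of the class. Intervals are exact (Poisson for levels, conditional for ratios, Clopper-Pearson for shares) and cover counting error only; UMIs of 1 library say nothing of the spread between mice. For shares each cell was thinned to 1000 UMIs and shallower cells were left out, 479 in Apoa1bp-/- and 824 in WT over all kept cells. The calls were tried on counts simulated from the class sums with counting error only, where 200 genes with a mean of at least 20 CPM were set at 2-fold. Among 8956 genes for macrophages, 100% of the set genes were called. Among 9947 for endothelial cells, 96% of the higher, 98% of the lower and 5.41% of the unaltered genes were called. The simulation held no spread between cells or mice and altered no gene near the 5 CPM minimum. It therefore cannot speak for calls that rest on 1 cell or on low genes. Promoter windows and gene order came from RefSeq on GRCm38.p6, and exon overlaps from the GENCODE M21 annotation.

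The members and gene lists were chosen with earlier results of these data known. All 34 members are accounted for: a member is described in a lineage where it had at least 20 UMIs, its leading lineages are shown in the map of levels, and every member past 1.5-fold in a compared class is named or counted. Members whose reads can be shared with a similar gene are marked as uncertain. Alternatives covered the mean over cells, thinning, the scale, doublets, the minimum, stricter gates, the mitochondrial limit, the highest cell and the weights of the states. Calculations used Python 3.11.15, numpy 2.4.6, scipy 1.17.1, pandas 2.3.3 and scikit-learn 1.9.0.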

Additional observations from a re-analysis of the deposited data

Results flagged for a closer look

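Several ligands were past 1.5-fold higher in Apoa1bp-/- in some lineages or states and past 1.5-fold lower in others. None of these differences was tested, since each genotype is 1 library, and their cause was not tested.

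The Ccl2 ratio of Apoa1bp-/- over WT was 2.30 in macrophages, 2.07 in fibroblasts and 4.73 in satellite cells, and 0.324 in endothelial cells. The endothelial values rest on 50 UMIs in Apoa1bp-/- and 71 in WT, and 1 Apoa1bp-/- cell held 72.4% of the satellite cell UMIs. The endothelial Ccl2 ratio was 1.51 in cells thinned to 1000 UMIs, where the opposite direction was lost, and 0.925 as a mean over cells. The satellite cell ratio was 1.62 without the highest cell of each library. The Cxcl2 ratio was 2.98 in fibroblasts and 4.28 in satellite cells, and 0.467 in endothelial cells. Endothelial Cxcl2 came within 1.5-fold in thinned cells (0.777) and as a mean over cells (0.862). Satellite cell Cxcl2 was 1.16 in thinned cells and 2.05 without the highest cells. The Ccl11 ratio was 3.16 in endothelial cells, on 55 UMIs in Apoa1bp-/- and 8 in WT, and 0.576 in fibroblasts. In thinned endothelial cells it was 0.604, on fewer UMIs still, so no direction is read from the thinned value. The Cxcl9 ratio was 2.21 in fibroblasts and 0.387 in macrophages, on 197 macrophage UMIs in Apoa1bp-/- and 547 in WT.

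Among macrophage states, the Ccl2 ratio was 6.22 in resident and 2.93 in lipid-associated cells, and 0.531 in interferon-state cells. The Ccl4 ratio was 2.89 in resident and 1.69 in class II cells, and 0.560 in interferon-state cells. The Ccl12 ratio was 2.20 in resident, 4.79 in lipid-associated and 2.02 in class II cells, and 0.347 in interferon-state cells. In interferon-state cells, 1 WT cell held 80.7% of the Ccl2, 63.7% of the Ccl4 and 60.6% of the Ccl12 UMIs. Without the highest cell of each library the interferon-state ratios were 2.498 for Ccl2, 1.39 for Ccl4 and 0.716 for Ccl12.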

How the results depend on the processing

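Counts of members past 1.5-fold stayed within 1.5 times the reported count in 149 recomputations and left that range in 34, and single ratios or shares moved little in 797, moved in 238 and turned direction in 20. The gate margin of 1.5, the mitochondrial limit of 5% as applied to the counts of members, the omission of the highest cell and the fibroblast weights were chosen after seeing the data. With cells thinned to 1000 UMIs, the count of higher members was 10 over all kept cells, 0 in endothelial and 2 in satellite cells, and the count of lower members 3 in endothelial, 0 in resident and 3 in interferon-state cells. As means over cells, 8 members were higher over all kept cells, and 1 was lower in resident and 3 in interferon-state cells. Without the highest cell of each library, 2 were higher in satellite cells, and 1 was lower in resident and 2 in interferon-state cells. With 100 UMIs required, 1 was higher and 5 lower in endothelial cells, 1 lower in resident and 3 higher in interferon-state cells. With no minimum beyond 1 UMI, 9 were higher over all kept cells, 9 higher and 13 lower in macrophages, 12 higher in fibroblasts, 7 higher and 19 lower in endothelial cells, and 8 higher and 14 lower in satellite cells. In the macrophage states that setting gave 10 lower in resident, 9 higher and 11 lower in lipid-associated, 5 higher and 15 lower in class II, and 12 higher in interferon-state cells. With states weighted alike, 3 were higher in macrophages and 4 lower in fibroblasts. Median-ratio scaling gave 5 higher in class II cells, and keeping doublets 4 lower in lipid-associated cells. The cause of these shifts was not tested, other than that a lower minimum admits more members and a higher one fewer. Ratios that turned direction were, with thinned cells, endothelial Ccl2 (1.51), Ccl7 (0.907) and Ccl11 (0.604), resident Ccr2 (0.715), and interferon-state Ccl2 (1.99), Ccl4 (1.504), Cxcl9 (2.05), Pf4 (1.16) and Ccr1 (0.615). As means over cells they were endothelial Ccl4 (0.430) and interferon-state Ccl2 (1.93), Ccl4 (1.48) and Pf4 (1.16). Without the highest cell they were interferon-state Ccl2 (2.498), Ccl4 (1.39) and Pf4 (1.21). With doublets kept they were endothelial Ccl4 (0.833) and satellite cell Ccl4 (1.01) and Ccr2 (1.04), and with 4 markers required satellite cell Ccl4 (1.06). Ratios of low members in small classes are limited by depth. Thinning leaves fewer UMIs still, so no direction is read from their thinned ratios. No paired analysis was possible because each genotype is 1 library and no test was made.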
